A study of Gallus gallus with 26 samples.

Results

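The 35 genes of glycolysis and of the response to low oxygen examined here take glucose into the cell, split it to pyruvate, turn pyruvate to lactate, and sense or answer a lack of oxygen. They were taken by name from the mRNA tables of a study of chicken (Gallus gallus) ovary, and all 35 were found among 25079 genes. Of these, 32 carry the listed symbol, and 3 stand under another symbol for which the RefSeq table of assembly GRCg7b lists the name as a synonym: PGK1 in the row PGK2, PKM in the row PKLR and SLC2A3 in the row SLC2A14. The rule names the genes and uses no measured value, though the list was chosen with earlier results of these data known.

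Tissue came from 3 groups: normal ovary (n = 4), early-stage ovarian cancer (n = 4) and late-stage ovarian cancer (n = 5). The study profiled mRNA and miRNA in the 13 samples, and each comparison asked how the groups differ in expression. The labels give no breed, age or treatment for any group, and do not state whether each sample is a hen of its own. The p-values therefore reflect only how these samples spread, which may in part be technical. A library is called by its group and code number, and values are listed in the order normal 3, 4, 6 and 7, early 9, 11, 12 and 21, and late 3, 7, 23, 25 and 31. Levels are TPM, the deposited expression value scaled for gene length and library total, given as mean ± SD.

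In mammals, hexokinase to pyruvate kinase form the glycolytic chain, and lactate dehydrogenase passes its product to lactate, which monocarboxylate carriers export. Pyruvate dehydrogenase kinases switch off pyruvate dehydrogenase, and so hold pyruvate back from oxidation in the mitochondrion. When oxygen is scarce, prolyl hydroxylases (the EGLN proteins) stop marking the alpha subunits of hypoxia-inducible factor (HIF1A and EPAS1) for breakdown, and the factor switches on glucose carriers, most glycolytic enzymes and genes such as VEGFA and CA9. Control of HIF alpha subunits acts mainly on the protein, which these libraries do not read. Tumours of many mammalian tissues run glycolysis at a high rate even with oxygen present.

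Messenger RNA libraries held 16273731 to 20118629 estimated counts and miRNA libraries 3038926 to 7728289 counts. The common coefficient of variation between mRNA libraries, after counting error, was 33.6%. Ovarian genes were read in all groups: FOXL2, a granulosa cell factor, averaged 439 ± 153, 369 ± 167 and 396 ± 161 TPM in normal, early and late libraries, and GDF9, made by oocytes, averaged 204 ± 58.4, 246 ± 119 and 306 ± 161. EPCAM, an epithelial surface protein, averaged 748 ± 289, 830.0 ± 392 and 1193 ± 281 TPM. The labels name no batch or day of preparation, so preparation and group cannot be told apart.

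None of the 35 genes was called in any of the 3 comparisons. Between the groups compared, 22 to 28 of them differed by less than 0.3 on the log2 scale. For all genes tested the median size of change was 0.20 to 0.29, so such small values are common. A small estimate does not show that groups are equal. The test was edgeR's quasi-likelihood test on the estimated counts of all 13 libraries, adjusted by the Benjamini-Hochberg method over the 16130 genes that passed the expression filter, with a threshold of 0.05. All 35 passed that filter. In each comparison the share of all genes called was likewise 0%. The members with the lowest adjusted p stood at 0.916 in early against normal, 0.244 in late against normal and 0.736 in late against early.

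At an unadjusted p under 0.05, 3 of the 35 (8.57%) stood apart in early against normal, beside 5.04% of all genes tested. In late against normal there were 8 (22.9%), beside 17.9% of all genes. In late against early there were 3 (8.57%), beside 6.34%. By direction, 1 member was higher and 2 lower in early against normal (2.15% and 2.9% of all genes), 4 were higher and 4 lower in late against normal (7.51% and 10.4%), and 2 were higher and 1 lower in late against early (2.39% and 3.96%). The first and second comparisons share the normal libraries, and the others share the early or the late libraries.

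The median log2 fold change of the 35 was -0.07 in early against normal, -0.02 in late against normal and -0.03 in late against early, and that of all genes tested was 0.01, 0.01 and 0.00. The late against normal median was 0.01 and that of late against early -0.00048 when libraries were scaled by their totals alone. In size without regard to sign, the median was 0.21, 0.22 and 0.11 for the 35 and 0.20, 0.29 and 0.21 for all genes. Changes smaller than 0.3 numbered 22, 23 and 28 of the 35. The widest fitted changes upward were 1.39-fold, 1.54-fold and 1.48-fold in the 3 comparisons. Downward changes were wider, at most -1.15, -1.44 and -1.16 on the log2 scale. They came from SLC16A3 in early against normal and from VEGFA otherwise, both genes of low counts. Fold changes come from counts and may differ slightly in size, or in sign when near 0, from the ratio of the TPM means.

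**Figure D1:**
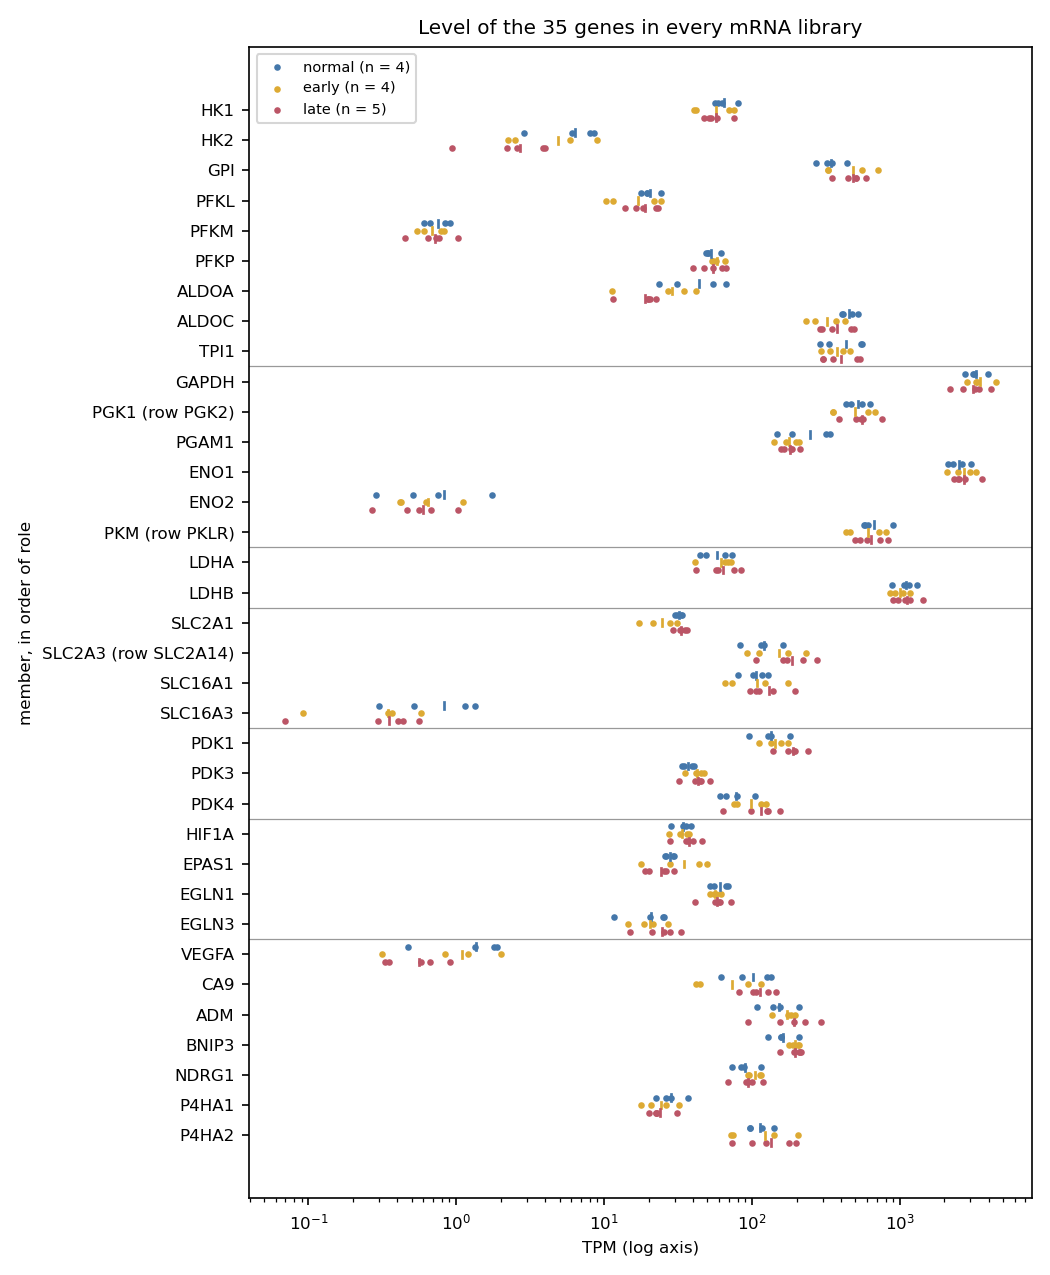
Level of each of the 35 genes in every mRNA library, as TPM on a log axis, in order of role with lines between roles; points are libraries (4 normal, 4 early, 5 late) and vertical ticks are group means. GAPDH (mean 3277 TPM) and ENO1 (mean 2657) stand highest, and SLC16A3 (mean 0.496) lowest.

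The levels spanned a wide range. GAPDH averaged 3277 TPM over the 13 libraries and ranked 46 among all genes of the table, and ENO1 averaged 2657 TPM and ranked 58. LDHB followed at 1076 TPM, PKM at 637, PGK1 at 526, GPI at 438, TPI1 at 402 and ALDOC at 384. At the other end stood HK2 at 4.51 TPM, VEGFA at 0.974, PFKM at 0.723, ENO2 at 0.682 and SLC16A3 at 0.496. These last 4 genes had between 3 and 57 counts per library, which leaves their values coarse. Together the 17 glycolytic enzymes and lactate dehydrogenases held 0.978% ± 0.146 of the TPM of normal libraries, 0.988% ± 0.183 of early ones and 0.982% ± 0.152 of late ones (SD, n = 4, 4 and 5), with ranges that overlapped.

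Hexokinases and upper glycolysis come first. Hexokinase traps glucose in the cell as its phosphate, and HK1, the form of most tissues in mammals, averaged 64.4 ± 10.96, 56.9 ± 18.3 and 57.2 ± 11.04 TPM in normal, early and late libraries. HK2, the form that mammalian HIF induces, stood at 8.00, 8.60, 6.11 and 2.88 TPM in normal ovary. Its early libraries read 5.85, 2.25, 2.50 and 8.94 TPM. Its late libraries read 0.936, 2.56, 4.004, 3.86 and 2.21 TPM. Late libraries were all at or below 4.004 TPM and 3 of the 4 normal ones above it, but normal 7 lay among the late ones. The log2 fold change of HK2 in late against normal was -1.42 ± 0.55 (SE, edgeR p = 0.0219, adjusted p = 0.249).

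GPI, which turns glucose 6-phosphate to fructose 6-phosphate, was the most abundant gene of this role. Normal libraries held 349, 269, 320 and 439 TPM. Early libraries held 325, 713, 555 and 328 TPM. Late libraries held 501, 508, 449, 348 and 592 TPM. Early 11 and 12 and 4 of the 5 late libraries lay above every normal one, while early 9, early 21 and late 25 lay within the normal range. The log2 fold change was 0.47 ± 0.20 in early against normal (edgeR p = 0.032, adjusted p = 0.916) and 0.43 ± 0.19 in late against normal (edgeR p = 0.0393, adjusted p = 0.266). Without early 11 the first of these was 0.28.

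Phosphofructokinase commits sugar to glycolysis and is made of 3 kinds of subunit. PFKP averaged 52.8 ± 5.94, 57.7 ± 5.61 and 54.2 ± 10.99 TPM in normal, early and late libraries. PFKL averaged 20.3 ± 2.86, 17.0 ± 7.09 and 18.8 ± 3.95 TPM. PFKM, the muscle form of mammals, averaged 0.757 ± 0.142, 0.689 ± 0.135 and 0.723 ± 0.209 TPM. Their log2 fold changes lay between -0.33 and 0.16 in early against normal and between -0.26 and -0.02 in late against normal, none with an unadjusted p under 0.05.

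Aldolase splits the sugar into triose phosphates, and ALDOA, its form in mammalian muscle and most other tissues, gave the lowest p of the 35 genes. Its normal libraries read 54.3, 66.4, 31.03 and 23.5 TPM, the early ones 34.5, 11.4, 26.9 and 42.1 TPM, and the late ones 11.5, 19.9, 20.6, 22.4 and 19.9 TPM. Every late library lay below every normal one. ALDOA was the 1 member of 35 (2.86%) whose late and normal groups did not overlap in TPM, beside 2.67% of all genes tested, and the gap between normal 7 and late 25 was narrow. In normalised CPM, counts scaled between libraries as in the test (TMM) and not for gene length, its groups overlapped. Its log2 fold change in late against normal was -1.40 ± 0.45 (edgeR p = 0.00797, adjusted p = 0.244). Without normal 4 the value was -0.996 (adjusted p = 0.611), and without normal 7 it was -1.64 (adjusted p = 0.0589). In the other 2 comparisons no member had groups apart in TPM, beside 1.8% of genes in early against normal and 1.04% in late against early. In normalised CPM, SLC2A1 in early against normal was the 1 member apart. The share of all genes apart in CPM is not given here.

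ALDOC, the brain form of mammals, stood above ALDOA in every library. It stood at 519, 473, 409 and 413 TPM in normal, at 232, 372, 425 and 265 TPM in early, and at 490, 289, 297, 468 and 345 TPM in late libraries. Early 12 alone of the early libraries reached the normal range, and late 3 and late 25 reached it among the late ones. In early against normal its log2 fold change was -0.54 ± 0.22 (edgeR p = 0.0309, adjusted p = 0.916), and that in late against normal -0.43 ± 0.21 (edgeR p = 0.0608, adjusted p = 0.292). TPI1, which interconverts the products of aldolase, averaged 431 ± 139, 376 ± 74.9 and 401 ± 116 TPM. In late against normal, 8 of the 9 genes of upper glycolysis had a log2 fold change below 0, with a median of -0.26. GPI alone lay above 0, as did 50.9% of all genes tested. Among the 8, PFKP was close to 0 (-0.02 ± 0.14).

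In lower glycolysis, GAPDH, which oxidises the 3-carbon sugar, read 3938, 3146, 2742 and 3160 TPM in normal libraries. It read 2857, 3273, 4496 and 3327 TPM in early and 4152, 2687, 2168, 3240 and 3416 TPM in late libraries. The 3 groups overlapped across most of their range, and late 23 was lowest and early 12 highest. Its log2 fold changes were 0.13 ± 0.22, -0.11 ± 0.21 and -0.24 ± 0.21 for early and late tumour against normal ovary and for late against early. ENO1, an enolase, averaged 2522 ± 407, 2702 ± 533 and 2729 ± 505 TPM. PGK1, which makes ATP in this chain, averaged 519 ± 86.5, 500.1 ± 171 and 551 ± 133 TPM, and PKM, the pyruvate kinase, averaged 666 ± 154, 604 ± 190 and 639 ± 137 TPM. ENO2, the enolase of mammalian neurons, averaged 0.826 ± 0.645, 0.644 ± 0.327 and 0.599 ± 0.280 TPM.

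PGAM1, a phosphoglycerate mutase, was the gene of lower glycolysis with the lowest p. Its normal libraries held 338, 315, 187 and 148 TPM, its early ones 169, 140.2, 198 and 209 TPM, and its late ones 187, 157, 163, 210 and 184 TPM. Normal 3 and normal 4 stood above all other libraries, and normal 6 and normal 7 lay among the tumour libraries. The log2 fold change in late against normal was -0.58 ± 0.27 (edgeR p = 0.04996, adjusted p = 0.279). Without normal 4 it was -0.34.

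**Figure D2:**
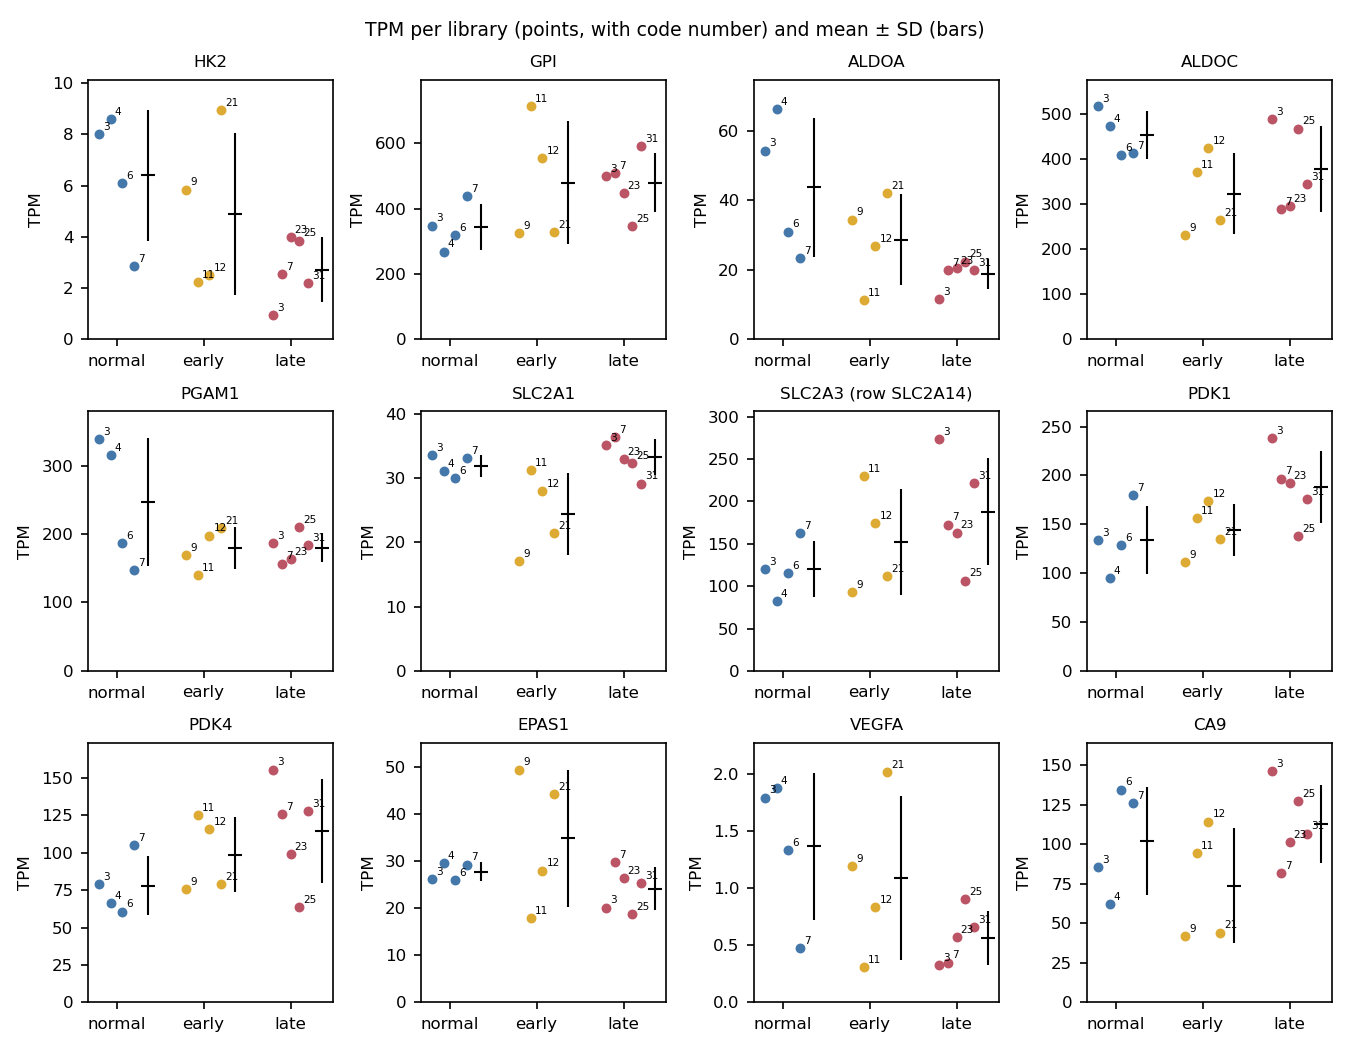
TPM of the 12 members with an unadjusted edgeR p under 0.05 in any comparison; points are libraries with their code number, and bars are group means with SD (n = 4, 4 and 5), each panel on its own axis from 0. ALDOA is the member whose late libraries (11.5 to 22.4 TPM) all lie below its normal ones (23.5 to 66.4 TPM).

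Lactate dehydrogenase is built from A and B chains, the A chain being typical of mammalian muscle and the B chain of mammalian heart. LDHB read 1302, 890.0, 1065 and 1150 TPM in normal, 922, 1057, 1170 and 858 TPM in early, and 898, 1088, 1176, 976 and 1441 TPM in late libraries. LDHA, a target of HIF in mammals, averaged 58.1 ± 13.8, 61.9 ± 13.99 and 63.4 ± 16.6 TPM. All groups overlapped for both genes. Log2 fold changes lay between -0.12 and 0.15 in the 3 comparisons, within 1 SE of 0.

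Carriers bring glucose in and take lactate out. SLC2A1 (GLUT1), the widely expressed glucose carrier of mammals, read 33.6, 31.1, 29.9 and 33.1 TPM in normal, 17.1, 31.2, 28.0 and 21.5 TPM in early, and 35.2, 36.4, 32.9, 32.4 and 29.1 TPM in late libraries. Early 9 and early 21 stood lowest of all libraries, and the other 2 early libraries lay close to or within the range of the other groups in TPM. In normalised CPM every early library lay below every normal one, but in TPM the groups overlapped. How common such a separation in CPM is among all genes is not given here. Its log2 fold change was -0.40 ± 0.14 in early against normal (edgeR p = 0.0124, adjusted p = 0.916). In late against early it was 0.39 ± 0.13 (edgeR p = 0.0112, adjusted p = 0.736), and in late against normal -0.01 ± 0.13. The first and the second of these values rest on the same early libraries.

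SLC2A3 (GLUT3), a glucose carrier of high affinity in mammals, was the most abundant carrier of the set. It stood at 120.4, 82.4, 115 and 162 TPM in normal, at 93.0, 230.2, 174 and 112 TPM in early, and at 274, 173, 163, 107 and 222 TPM in late libraries. Late 3 stood highest, 4 of 5 late libraries lay above every normal one, and late 25 lay within the normal range. In late against normal its log2 fold change was 0.62 ± 0.25 (edgeR p = 0.0262, adjusted p = 0.253), the widest upward change of the 35 genes in that comparison.

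Of the lactate carriers, SLC16A1 (MCT1) averaged 107 ± 21.05, 109 ± 50.3 and 129.7 ± 39.3 TPM, a change of 0.23 ± 0.23 on the log2 scale in late against normal. SLC16A3 (MCT4), the export carrier that HIF induces in mammals, averaged 0.824 ± 0.492, 0.346 ± 0.200 and 0.353 ± 0.185 TPM. Its log2 fold change was -1.15 ± 0.65 in early against normal (edgeR p = 0.0989, adjusted p = 0.916) and -1.18 ± 0.61 in late against normal (edgeR p = 0.0727, adjusted p = 0.310), from 3 to 57 counts per library.

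All 3 pyruvate dehydrogenase kinases had positive log2 fold changes in both tumour stages against normal, with a median of 0.23 in early and 0.48 in late. Of all genes tested, 52.0% and 50.9% were positive there. None of the 3 was called by edgeR. PDK1, a target of HIF in mammals, read 134, 94.9, 129 and 179.6 TPM in normal, 111, 156, 174 and 135 TPM in early, and 239, 197, 192, 138 and 176 TPM in late libraries. Late 3, 7 and 23 lay above every normal library, and late 25 and 31 did not. The log2 fold change in late against normal was 0.48 ± 0.18 (edgeR p = 0.0171, adjusted p = 0.247). PDK4, the form that answers fasting in mammals, stood at 78.9, 66.6, 60.7 and 105.3 TPM in normal, at 75.7, 125, 116 and 78.9 TPM in early, and at 156, 126, 99.0, 63.7 and 128 TPM in late libraries. Early 11 and 12 and late 3, 7 and 31 lay above every normal library. Its log2 fold change in late against normal was 0.53 ± 0.20 (edgeR p = 0.022, adjusted p = 0.249). PDK3 averaged 36.9 ± 3.39, 42.4 ± 5.42 and 43.1 ± 7.24 TPM, with log2 fold changes of 0.23 ± 0.12 and 0.20 ± 0.12 against normal (edgeR p = 0.0797 and p = 0.108).

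Calls in late against normal depended on the test. Limma voom with quality weights called GPI (log2 fold change 0.50, adjusted p = 0.049), PDK1 (0.56, adjusted p = 0.0449) and PDK4 (0.64, adjusted p = 0.0452), 3 of 35 members, beside 5.55% of all genes. DESeq2 called 0 members, beside 0.813% of the genes it tested, and the members that edgeR called were 0 as well. In early against normal and late against early, DESeq2 called 0.0516% and 0.0593% of genes and voom 0%, with 0 members by either. Leaving out normal 7 raised the count of all genes that edgeR called in late against normal from 0 to 113, and 0 of these were members.

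**Figure D3:**
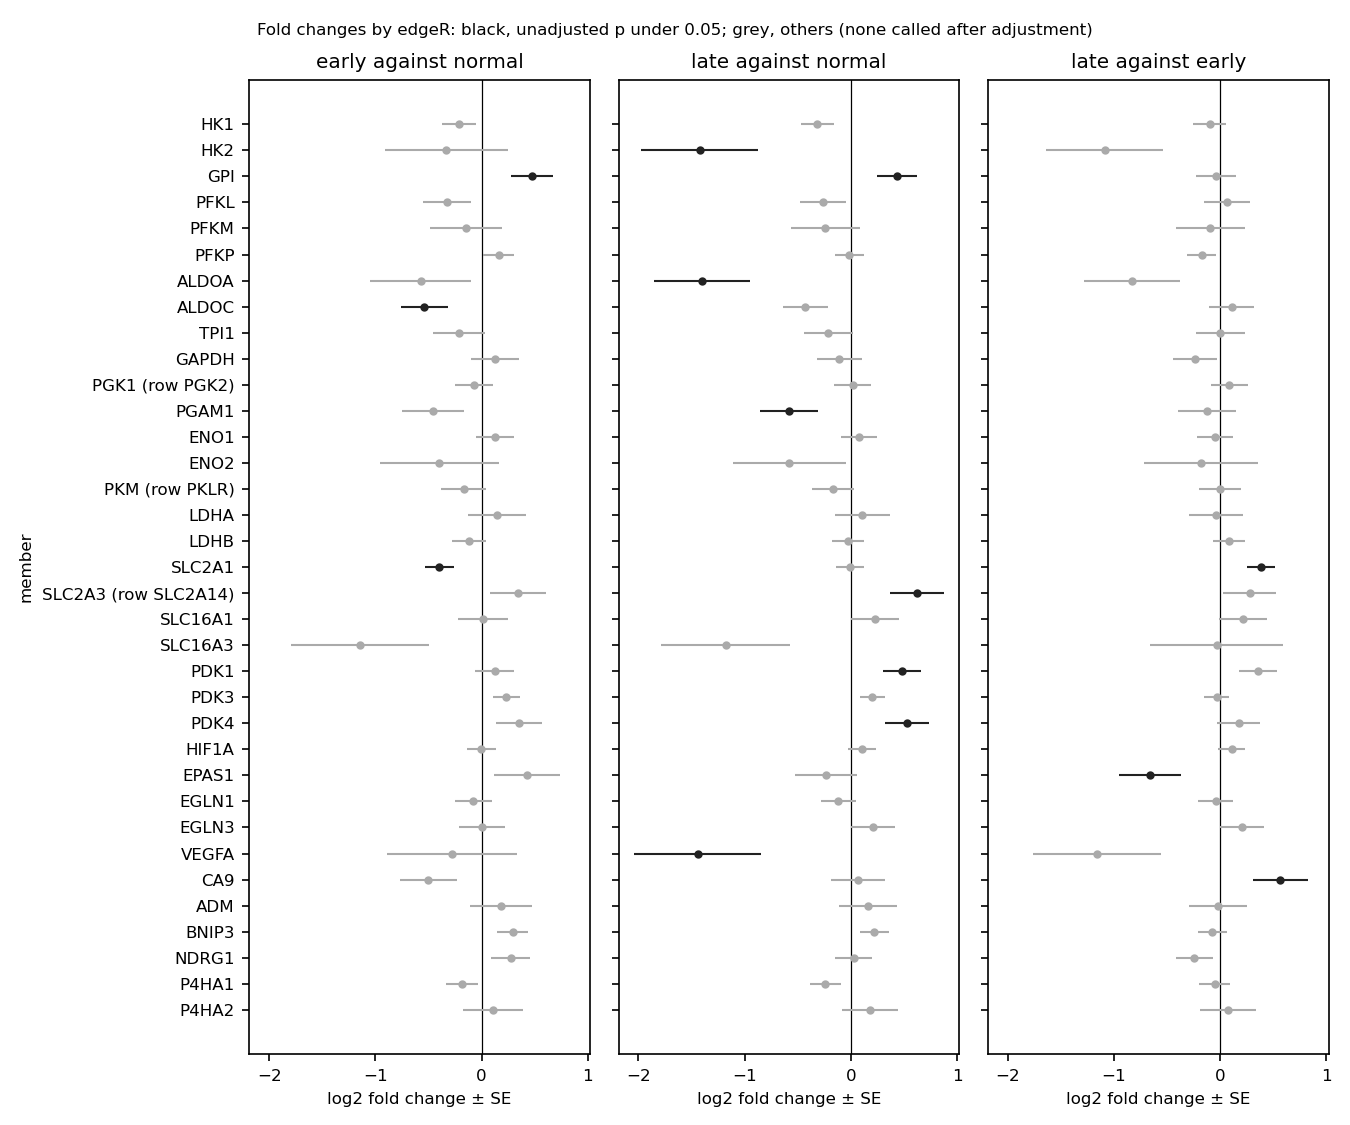
Log2 fold change by edgeR (point) with its SE (bar) for each of the 35 genes in the 3 comparisons, on a shared axis; black marks an unadjusted p under 0.05 and grey the rest, and none passed after adjustment over all genes. The lowest values in late against normal are VEGFA (-1.44), HK2 (-1.42) and ALDOA (-1.40), and the highest is SLC2A3 (0.62).

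The oxygen sensors and HIF subunits follow. EGLN1, the main prolyl hydroxylase of mammalian cells, read 66.8, 51.7, 68.5 and 55.1 TPM in normal, 52.0, 55.7, 61.4 and 57.0 TPM in early, and 41.4, 72.3, 60.5, 56.2 and 60.02 TPM in late libraries, which overlapped throughout. EGLN3, a prolyl hydroxylase that HIF itself induces in mammals, averaged 20.7 ± 6.44, 20.3 ± 5.30 and 24.5 ± 6.92 TPM, and ran from 11.6 to 33.1 TPM over all libraries. HIF1A averaged 34.2 ± 4.27, 33.5 ± 4.34 and 37.4 ± 6.64 TPM, with log2 fold changes of -0.00 ± 0.14 in early and 0.11 ± 0.13 in late against normal. The 4 genes together held 143 ± 11.3, 145 ± 4.85 and 144 ± 19.0 TPM in normal, early and late libraries.

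EPAS1 (HIF2A), the alpha subunit known from mammalian endothelium, varied among the early libraries. It stood at 26.1, 29.6, 25.9 and 29.2 TPM in normal, at 49.3, 17.8, 28.0 and 44.1 TPM in early, and at 20.1, 29.8, 26.4, 18.8 and 25.3 TPM in late libraries. Early 9 and early 21 were the highest of all libraries and early 11 the lowest. In late against early its log2 fold change was -0.66 ± 0.29 (edgeR p = 0.0398, adjusted p = 0.736), and without early 9 it was -0.34. All 11 endothelial markers listed were detected in every library. Their summed level was 271, 249, 232 and 283 TPM in the early libraries. It was 161 to 251 TPM in late and 174 to 235 TPM in normal ones. EMCN was the most abundant of them, at 116 ± 25.1, 154 ± 29.6 and 147 ± 23.4 TPM in normal, early and late libraries. PLVAP, the next, averaged 26.8 ± 12.5, 25.6 ± 13.1 and 13.4 ± 6.37 TPM. Of 10 macrophage markers, 8 were in the table and all were read in every library. Their sum was 1655, 301, 420 and 1498 TPM in early 9, 11, 12 and 21, highest of all 13 libraries in early 9 and early 21, against 193 to 881 TPM in late and 637 to 1195 TPM in normal libraries. On average the macrophage sum was mostly CD74, at 806 ± 209, 854 ± 675 and 488 ± 257 TPM in normal, early and late libraries. CTSS, the next of its genes, averaged 47.0 ± 12.3, 51.5 ± 30.4 and 31.5 ± 17.2 TPM. The part of either cell type in the EPAS1 values was not tested. In bulk tissue such as this, fewer cells of a type and less RNA per cell cannot be told apart.

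Of the targets of hypoxia, VEGFA, the growth factor for blood vessels, was read at a low level. It stood at 1.79, 1.88, 1.33 and 0.473 TPM in normal, at 1.19, 0.313, 0.834 and 2.02 TPM in early, and at 0.330, 0.349, 0.573, 0.906 and 0.660 TPM in late libraries, from 5 to 42 counts per library. Normal 3, 4 and 6 lay above every late library and normal 7 among them. The log2 fold change in late against normal was -1.44 ± 0.60 (edgeR p = 0.0305, adjusted p = 0.257). On log2 TPM with a pseudocount of 1 it was -0.57, a scale that understates changes of low genes.

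CA9, a carbonic anhydrase at the cell surface and a usual marker of hypoxia in human tumours, was read at 85.4, 62.0, 135 and 126 TPM in normal ovary. It was read at 42.0, 94.5, 114 and 44.2 TPM in early and at 146, 81.9, 102, 127 and 107 TPM in late libraries. Early 9 and early 21 were lowest of all, and late libraries lay mostly within the normal range. Its log2 fold change was 0.57 ± 0.26 in late against early (edgeR p = 0.0448, adjusted p = 0.736), -0.50 ± 0.27 in early against normal (edgeR p = 0.0823, adjusted p = 0.916) and 0.06 ± 0.25 in late against normal.

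BNIP3, which acts in the removal of mitochondria, was the most abundant of the targets. It read 158, 127.6, 158 and 208 TPM in normal, 179, 204, 188 and 209 TPM in early, and 209, 216, 192, 155 and 210.0 TPM in late libraries. Normal 4 was lowest, and normal 7 lay among the tumour libraries. Its log2 fold changes against normal were 0.30 ± 0.15 in early (edgeR p = 0.0618, adjusted p = 0.916) and 0.22 ± 0.14 in late (edgeR p = 0.133, adjusted p = 0.389).

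ADM, the vessel-widening peptide adrenomedullin, averaged 153 ± 42.2, 172 ± 24.9 and 193 ± 75.6 TPM in normal, early and late libraries, and its late libraries ran from 93.3 to 295 TPM. NDRG1, a stress-responsive protein, averaged 89.9 ± 17.5, 104 ± 11.5 and 94.5 ± 18.1 TPM. P4HA1 and P4HA2 are the catalytic subunits of collagen prolyl hydroxylase. P4HA1 averaged 28.5 ± 6.07, 24.2 ± 6.31 and 23.8 ± 4.36 TPM, and P4HA2 averaged 113 ± 21.1, 123 ± 63.1 and 135 ± 52.1 TPM. Log2 fold changes of these 4 genes lay between -0.25 and 0.27 in the 3 comparisons.

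**Figure D4:**
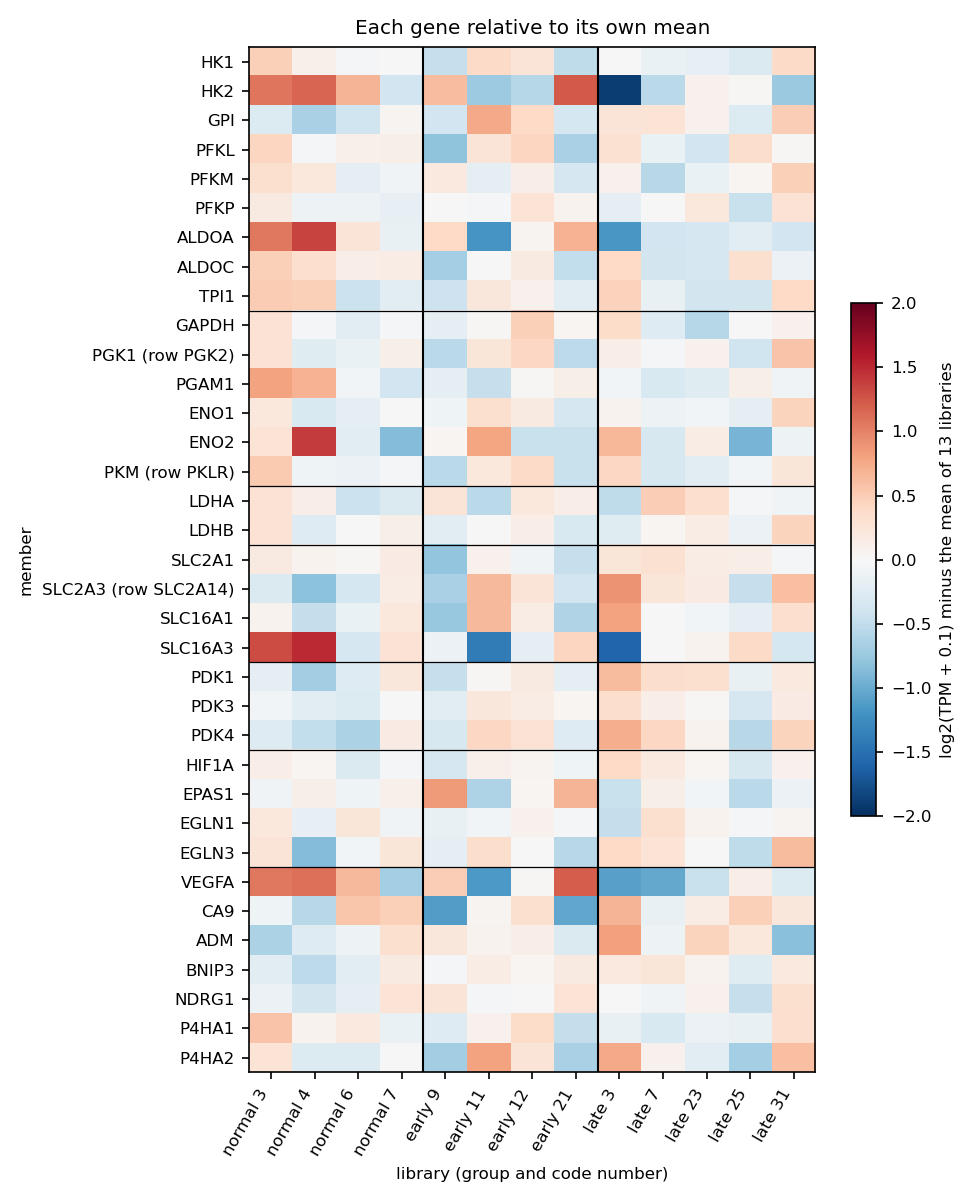
Each of the 35 genes (rows, in order of role) in each of the 13 mRNA libraries (columns, by group and code number), as log2(TPM + 0.1) minus the gene's mean over the libraries; red is above and blue below that mean. HK2, ALDOA and VEGFA are high in normal 3, normal 4 and early 21 and low in late 3 and early 11.

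The libraries that stood highest or lowest came from all 3 groups. Late 3 held the highest TPM of the 13 libraries for 8 members (22.9%), namely SLC2A3, SLC16A1, PDK1, PDK3, PDK4, HIF1A, CA9 and ADM. It did so for 21.9% of all genes tested. Late 31 was highest for 7 (PFKM, PFKP, PGK1, ENO1, LDHB, EGLN3 and NDRG1), or 20% beside 10.7% of all genes. Normal 3 was highest for 6 (HK1, ALDOC, TPI1, PGAM1, PKM and P4HA1), or 17.1% beside 12.7%. Late 7 was highest for 4 (LDHA, SLC2A1, EGLN1 and BNIP3), or 11.4% beside 3.09%. Normal 4 was highest for 3 (ALDOA, ENO2 and SLC16A3), or 8.57% beside 8.05%. Early 9 was lowest for 9 members (25.7%), beside 17.9% of all genes. Early 11 and normal 4 were each lowest for 5 (14.3%), beside 4.77% and 17.5% of all genes. The median coefficient of variation within groups was 22.4% for the 35 genes and 26.8% for all genes tested. Over genes of at least 10 TPM it was 20.5% for 30 members and 22.2% for 8245 genes.

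Markers of muscle and stroma were lower in many tumour libraries, and matched the genes that were lowest in late tumour in some libraries and not in others. Of 10 smooth muscle markers listed, 9 were in the table and all 9 were read in every library. Their summed level was 453 to 7730 TPM in normal, 293 to 2538 TPM in early and 90.1 to 1150.0 TPM in late libraries. It was highest in normal 4 and normal 3, where ALDOA (66.4 and 54.3 TPM) and PGAM1 (315 and 338 TPM) were highest too. It was lowest in late 3 and early 11, where HK2 (0.936 and 2.25 TPM), ALDOA (11.5 and 11.4 TPM) and VEGFA (0.330 and 0.313 TPM) were low. In early 21 HK2 (8.94 TPM) and VEGFA (2.02 TPM) were highest of all libraries, at a smooth muscle sum of 1063 TPM. The fibroblast sum there was 1652 TPM and the macrophage sum, on average mostly CD74, was 1498 TPM. Those sums were lowest in late 3 (172 and 193 TPM) and early 11 (383 and 301 TPM). Early 9 was highest for the macrophage sum (1655 TPM), with HK2 at 5.85 TPM and VEGFA at 1.19 TPM. Among normal libraries, normal 7 was lowest for the smooth muscle (453 TPM), fibroblast (962 TPM) and macrophage (637 TPM) sums. It was lowest of that group too for HK2 (2.88 TPM), ALDOA (23.5 TPM), VEGFA (0.473 TPM) and PGAM1 (148 TPM). PGAM1 read 210 TPM in late 25 (smooth muscle sum 1150.0 TPM) and 187 TPM in normal 6 (smooth muscle sum 1882 TPM). TAGLN (transgelin) averaged 1662 ± 1496, 395 ± 379 and 150.2 ± 118 TPM in normal, early and late libraries, and ACTG2, an actin of smooth muscle, averaged 1481 ± 1409, 251 ± 296 and 111 ± 113. The part of smooth muscle, fibroblasts or macrophages in the values of ALDOA, HK2, VEGFA and PGAM1 was not tested.

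Of 9 skeletal muscle markers, 8 were present, with sums of 47.8 to 749 TPM in normal, 34.3 to 132 TPM in early and 30.0 to 70.0 TPM in late libraries. ACTA1, the actin of skeletal muscle, averaged 368 ± 343, 58.4 ± 47.9 and 33.7 ± 20.5 TPM, and MB (myoglobin) 13.5 ± 5.23, 21.7 ± 18.4 and 17.3 ± 8.12. All 10 fibroblast markers were present, with sums of 962 to 3551, 383 to 2275 and 172 to 1199.8 TPM. Of 11 lymphocyte markers, 9 were present, with sums of 1941 to 9232, 1808 to 5993 and 216 to 4461 TPM. On average IGLL1 made up most of the lymphocyte sum, at 4911 ± 3349, 2620 ± 1603 and 2173 ± 1503 TPM. JCHAIN, the next of its genes, averaged 536 ± 220, 587 ± 321 and 529 ± 405 TPM. The red blood cell list (11 of 14 present) summed to 100.005 to 582, 127 to 909 and 54.9 to 436 TPM. No marker present was at 0 in every library, and the part of these cells was not tested either.

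For the genes that were higher in late tumour at an unadjusted p (GPI, SLC2A3, PDK1 and PDK4), other markers were read beside them. The 7 proliferation genes summed to 1729 to 3530 TPM in normal, 1981 to 3626 TPM in early and 2296 to 4757 TPM in late libraries. Highest were late 3 (4757 TPM) and late 31 (4229 TPM), followed by early 11 (3626 TPM) and normal 7 (3530 TPM). On average CCNB1 made up most of this sum, at 1676 ± 525, 1709 ± 575 and 2190 ± 620 TPM in normal, early and late libraries. Late 3 was highest of all libraries for SLC2A3, PDK1 and PDK4 too, but early 11 was highest for GPI (713 TPM) and exceeded late 31 for SLC2A3 (230.2 against 222 TPM). PDK1 in late 31 (176 TPM) lay below normal 7 (179.6 TPM). Of 15 epithelial and carcinoma markers, 13 were present, with sums of 906 to 1560.1, 1109 to 1577 and 1334 to 1980 TPM. Germ cell markers (9 of 11 present) summed to 554 to 850, 471 to 1092 and 645 to 1455 TPM. Their sum was highest in late 3 (1455 TPM), early 11 (1092 TPM) and late 31 (1047 TPM), the order of SLC2A3 in these libraries. It was higher in normal 3 (850 TPM) than in late 7 (790 TPM), where SLC2A3 was the other way (120.4 against 173 TPM). The granulosa and theca list (all 12 present) summed to 683 to 1120, 525 to 1266 and 745 to 1095 TPM. Whether these cells had a part in the values was not tested.

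Isoform choice was compared as a share of summed TPM within a library, which does not depend on scaling between libraries. Over 10 shares and 3 comparisons, 30 two-sided exact permutation tests were run, and the lowest Benjamini-Hochberg adjusted p was 0.771. With 4 against 4 libraries the smallest p such a test can give is 0.0286, and with 5 against 4 it is 0.0159. LDHB held 94.9% ± 1.36, 94.1% ± 1.62 and 94.6% ± 1.33 of lactate dehydrogenase in normal, early and late libraries, ALDOC 91.4% ± 3.01, 91.1% ± 5.27 and 94.9% ± 1.73 of ALDOA and ALDOC together, and PFKP 71.5% ± 1.14, 77.2% ± 6.53 and 72.9% ± 7.83 of phosphofructokinase. In all 13 libraries LDHB was thus the main lactate dehydrogenase, ALDOC the main aldolase of this pair, and PFKP the main phosphofructokinase.

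SLC2A3 held 78.2%, 72.6%, 79.4% and 83.1% of the summed SLC2A1 and SLC2A3 TPM in normal libraries, 84.5%, 88.1%, 86.1% and 83.9% in early ones, and 88.6%, 82.6%, 83.2%, 76.7% and 88.4% in late ones. All 4 early libraries lay above all 4 normal ones, by 7.34 percentage points on average (exact permutation p = 0.0286, the smallest possible, adjusted p = 0.771). The late share differed from normal by 5.60 points (exact permutation p = 0.143, adjusted p = 0.771). HK2 held 8.91% ± 3.10, 9.15% ± 7.30 and 4.74% ± 2.61 of hexokinase 1 and 2, with an exact permutation p of 0.0794 in late against normal (adjusted p = 0.771). PDK4 held 31.2% ± 2.86, 34.4% ± 2.91 and 32.6% ± 3.89 of the 3 kinases. The means of PFKM, ENO2 and SLC16A3 were at most 1.02%, 0.0352% and 0.828% of their families in any group, and PFKL held 27.4% ± 1.25, 21.9% ± 6.65 and 26.1% ± 7.71.

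**Figure D5:**
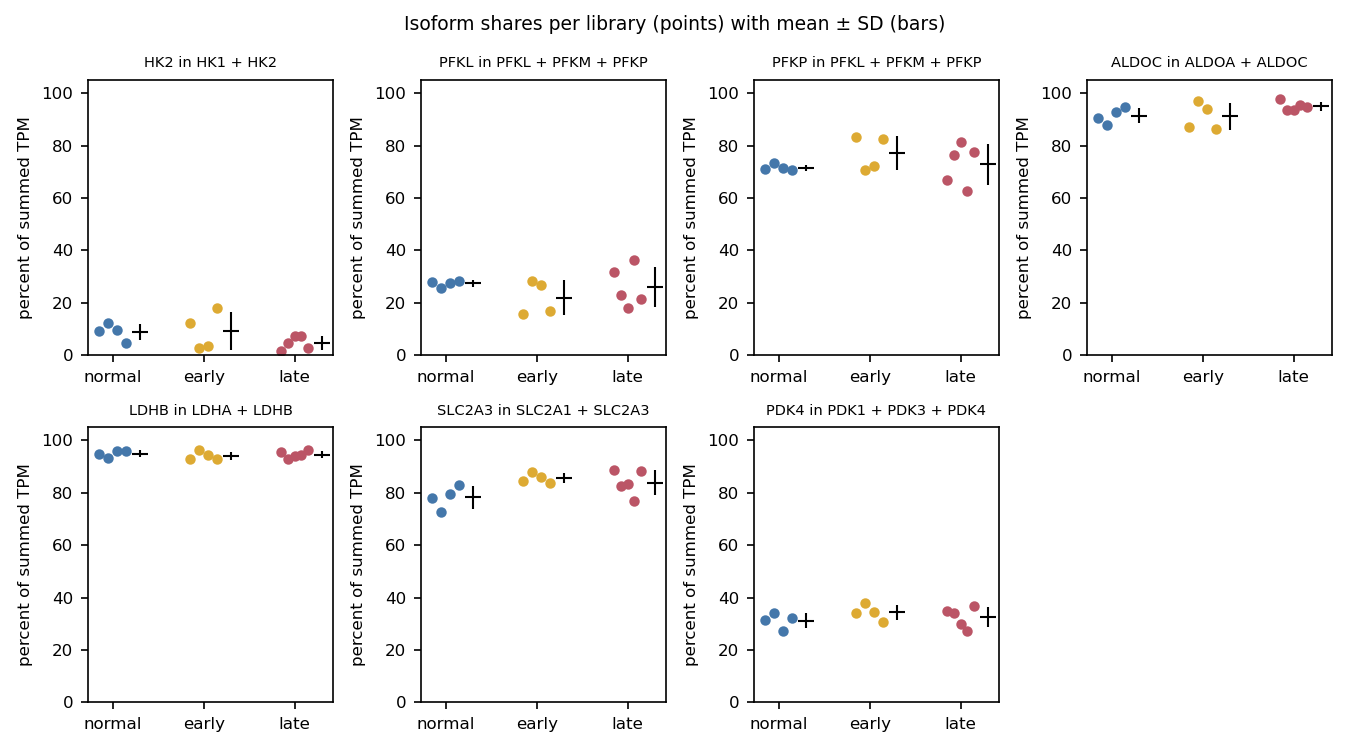
Share of each named isoform in the summed TPM of its family, in percent, per library (points; 4 normal, 4 early, 5 late) with mean and SD (bars). The SLC2A3 share of the early libraries (83.9% to 88.1%) lies above that of the normal ones (72.6% to 83.1%), and LDHB stays between 92.8% and 96.2% throughout.

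Other genes of the same pathway, from a list of 108 of which 86 were in the table and 84 tested, were read beside the 35. None was called by edgeR in any comparison. At an unadjusted p under 0.05, 3 were higher and 0 lower in early against normal, 8 higher and 11 lower in late against normal, and 2 higher and 3 lower in late against early. These are 3.57%, 22.6% and 5.95% of the 84, near the 5.04%, 17.9% and 6.34% of all genes tested.

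The genes of that list with the lowest p in early against normal were ANGPTL4, CXCR4 and DLD. ANGPTL4, a secreted inhibitor of lipoprotein lipase, averaged 1.85 ± 0.407 TPM in normal and 4.33 ± 2.49 in early libraries (log2 fold change 1.31 ± 0.54, edgeR adjusted p = 0.916). CXCR4, a chemokine receptor, averaged 28.1 ± 12.6, 53.5 ± 26.3 and 80.8 ± 48.4 TPM in the 3 groups. Its log2 fold change was 0.92 ± 0.43 in early (edgeR adjusted p = 0.916) and 1.52 ± 0.42 in late against normal (edgeR adjusted p = 0.244), and DESeq2 called the latter (1.51, adjusted p = 0.0369). DLD, a subunit of pyruvate dehydrogenase, averaged 106 ± 20.1 and 129 ± 22.3 TPM in normal and early libraries (log2 fold change 0.30 ± 0.14, edgeR adjusted p = 0.916).

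In late against normal, PDP2, the phosphatase that reverses the action of the PDK kinases, averaged 26.7 ± 4.43 TPM in normal and 38.0 ± 8.65 in late libraries (log2 fold change 0.51 ± 0.17, edgeR adjusted p = 0.244), and voom called it (0.52, adjusted p = 0.0452). Lower in late libraries, and not called, were PFKFB2, DDIT4, SLC2A5 and TGFB3. PFKFB2, which makes an activator of phosphofructokinase, averaged 2.80 ± 1.29 and 1.3005 ± 0.189 TPM (log2 fold change -1.20 ± 0.36, edgeR adjusted p = 0.244). DDIT4, an inhibitor of mTORC1 signalling, averaged 298 ± 96.5 and 208 ± 47.9 TPM (-0.77 ± 0.28, edgeR adjusted p = 0.244). SLC2A5, a fructose carrier, averaged 1.47 ± 0.239 and 0.894 ± 0.298 TPM (-0.78 ± 0.30, edgeR adjusted p = 0.248), and TGFB3, a growth factor, 36.6 ± 21.4 and 13.1 ± 5.19 TPM (-1.60 ± 0.61, edgeR adjusted p = 0.248).

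In late against early, BSG, the protein that brings the lactate carriers to the cell surface, averaged 228 ± 67.1 TPM in early and 149 ± 28.0 in late libraries (log2 fold change -0.76 ± 0.27, edgeR adjusted p = 0.736). SLC2A5 and PFKFB2 had log2 fold changes of -0.84 ± 0.30 and -0.82 ± 0.36 there. SLC16A8, a lactate carrier, and IGFBP1, a binding protein of insulin-like growth factors, had 1.24 ± 0.55 and 0.74 ± 0.34, at means under 3 TPM in both groups. All 4 had an edgeR adjusted p of 0.736. Without early 9 the log2 fold change of BSG was -0.49 and that of ANGPTL4 in early against normal 0.70, and without normal 4 those of PFKFB2 and DDIT4 in late against normal were -0.72 and -0.46.

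In the miRNA libraries, which are other sequencing libraries, miR-210 was read, a miRNA that HIF induces in mammals. Whether it answers low oxygen in chicken ovary was not tested. Of 266 miRNAs tested, edgeR called 0% in early against normal, 0.752% in late against normal and 0% in late against early, and none was a miR-210. Mature miR-210a-5p averaged 376 ± 171, 224 ± 52.0 and 262 ± 107 normalised CPM in normal, early and late libraries. Mature miR-210a-3p averaged 79.0 ± 5.53, 78.0 ± 5.97 and 86.4 ± 35.01, and miR-210b-3p 54.1 ± 30.0, 38.2 ± 13.9 and 60.7 ± 32.9. Log2 fold changes lay between -0.75 ± 0.42 (miR-210a-5p, early against normal, edgeR p = 0.0946, adjusted p = 0.653) and 0.67 ± 0.55 (miR-210b-3p, late against early, edgeR adjusted p = 0.571). Without late 23 the latter was 0.39. Groups overlapped for each in all comparisons. The fourth listed form, miR-210b-5p, had 0 counts in every library. An observed 0 still allows an expected count of up to about 3 in each.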

How the data were processed

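The authors deposited estimated counts for mRNA, a value for each gene and library, of which 30.1% are not whole numbers, and TPM values for those genes. For miRNA, raw counts of 1235 named miRNAs were deposited. Per the submitters' processing notes, FastQC, BWA and GATK 3.3.0 were among the tools, without a stated role. Which program counted reads, whether strand was used, how reads shared by paralogs were treated and which build was aligned to is not given in the sources used here. No coordinates or sequences are therefore printed, and isoform values carry that limit. The labels hold 2 records for each of the 13 codes, and columns were matched to groups by code.

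Estimated counts were rounded and tested with edgeR 4.0.16 in R 4.3.3 (TMM scaling, filterByExpr with a minimum count of 10, robust quasi-likelihood fit of all 13 libraries, Benjamini-Hochberg adjustment over 16130 genes or 266 miRNAs, threshold 0.05). SE is that implied by the F statistic. Alternatives were other scaling, no filter, DESeq2 1.42.0, limma 3.58.1 (voom with quality weights, and log2 TPM with a pseudocount of 1 or 0.1), only the 2 groups compared, each library left out, and the code number as a block. Shares were tested with SciPy 1.17.1. The count test was first tested on simulated data. Chi-square per gene between 2 libraries of a group was at least 17.8, so no library was counted as a duplicate.

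The 35 genes, the other pathway genes and the marker lists were chosen with earlier results of these data known, and some marker lists share genes with normal ovary. Values in every library are given for members with an unadjusted p under 0.05 or groups apart, and for the most abundant member of each role. Up to 6 other pathway genes per comparison are named by lowest p. The planned search of promoter letters was not run.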

Additional observations from a re-analysis of the deposited data

Results flagged for a closer look

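In 144 groups of 4 or 5 values checked for a library far from the rest of its group, 7 were found, where chance gives about 1 in 20. PFKP stood at 61.6 TPM in normal 3, with the other normal libraries between 48.7 and 50.5. PKM stood at 897 TPM in normal 3, with the others between 572 and 612. ALDOA stood at 11.5 TPM in late 3, with the other late libraries between 19.9 and 22.4, and P4HA1 at 31.3 TPM in late 31, with the others between 20.003 and 22.9. PFKM held 1.25% of phosphofructokinase in early 9, with the other early libraries between 0.791% and 0.859%. Normal 7 held 121 CPM of gga-miR-210a-5p, where the other normal libraries held 440 to 489, and 9.65 CPM of gga-miR-210b-3p, where they held 63.3 to 73.9.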

How the results depend on the processing

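None of the 35 genes was called in any comparison by edgeR under the alternatives run, and voom called 3 (GPI, PDK1 and PDK4) in late against normal. Over all genes, where edgeR called 0, DESeq2 called 8 in early against normal, 126 in late against normal and 9 in late against early, and voom called 895 in late against normal. Leaving out each library in turn gave 0 to 113 genes in late against normal, the highest without normal 7. The cause was not tested. Only the 28 single-gene log2 fold changes named for an unadjusted p under 0.05 were followed through the alternatives. They kept their sign in 484 of 484 alternatives, and 5 gained a call. As they were picked for lying away from 0 in these data, a kept sign was likely beforehand and is no measure of robustness. Fold changes of the other members were not followed one by one. The median log2 fold change of the 35 was near 0 and ranged from -0.09 to 0.0055 in late against normal with a library left out. Code numbers 3 and 7 occur in both normal and late labels, which do not say whether samples of the same number are related. With that replicate block, which leaves 1 residual degree of freedom, 0 members were called and the median was -0.107.

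The median of the 35 changed sign in 9 alternatives: in early against normal without normal 4 (0.0052), in late against normal with library-size scaling, on log2 TPM (0.018 with either pseudocount) and without normal 4, and in late against early on log2 TPM (0.043 and 0.045), without early 11 and without late 7. No share alone could have been called after adjustment. Of the single values followed, those that changed sign were all uncalled. With every library in, they were miR-210a-3p in early against normal (0.0324 with RLE scaling and 0.0319 by DESeq2) and the HK2 share in early against normal (-0.110 points from normalised CPM). With a library left out, log2 fold changes of miR-210a-3p ranged from -0.0444 to 0.0696 in early against normal, -0.137 to 0.306 in late against normal and -0.121 to 0.286 in late against early, and miR-210b-3p from -0.184 to 0.417 in late against normal. That of miR-210b-3p in late against early kept its sign (0.390 to 0.937). In percentage points, the share differences in early against normal ranged from -2.72 to 2.33 for HK2, -2.31 to 1.27 for ALDOC and -0.0199 to 0.00401 for ENO2. In late against normal they ranged from -3.88 to 0.741 for PFKL, -0.101 to 0.0408 for PFKM, -0.732 to 3.96 for PFKP, -0.0212 to 0.00269 for ENO2 and -0.958 to 0.0851 for LDHB. In late against early they ranged from -0.00293 to 0.161 for PFKM, -0.0051 to 0.00222 for ENO2, -2.92 to 0.0582 for SLC2A3 and -0.224 to 0.0217 for SLC16A3. Counts of 3 to 57 per library limit PFKM, ENO2, SLC16A3 and VEGFA.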
